A study of Mus musculus with 14 samples.

Results

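The glycolysis and hypoxia response genes are a list of 35 genes: the transporters that carry glucose in and lactate out, the enzymes of glycolysis, the kinases that set its speed, the oxygen-regulated HIF transcription factors with the enzymes that control them, and genes that HIF is known to induce. A gene counted as measured where a probe set of the array named it and no other gene, and the brightest such probe set was used. This gave 33 measured genes of 18194 measured in all; Gpi1 and Eno1 had no probe set of their own and were not analysed here. Of the 33, 30 lay in the upper 60% of mean level and were tested among 10916 genes, while Eno2, Egln3 and Ankrd37 fell under that level.

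Lungs came from BALB/c mice in 3 groups. In the first, 4 lungs came from mice given 4T1 cells, a metastatic mouse breast carcinoma line, in the fourth mammary fat pad. In the second, 5 lungs came from mice given 67NR cells, a mouse breast carcinoma line labelled as non-metastatic, in the same fat pad. The 5 normal lungs came from mice given PBS and no cells. Lungs were taken 6 days after the injection or once tumours measured about 50 mm3, and blood was flushed out with PBS in all groups; age and sex are not given in the labels. Each tumour class is 1 cell line, and the labels do not say that each lung came from a separate mouse, so each p-value rests on the spread among samples that may not be separate animals. RNA of each lung was read on 1 Affymetrix array, and values are the deposited linear intensities, whose medians lay between 113.2 and 116.1 on the 14 arrays. Alveolar type 2 markers, which define lung tissue, summed to 60385 to 69037 in 4T1 lungs, 59841 to 70527 in 67NR lungs and 62226 to 70642 in normal lungs.

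Glycolysis splits glucose into pyruvate and gives ATP without oxygen; lactate dehydrogenase then turns pyruvate into lactate, which is exported. When oxygen falls, the prolyl hydroxylases stop marking HIF-alpha proteins for destruction, and HIF binds DNA at short sites with the core RCGTG, written below as ACGTG or GCGTG, and raises transcription of most of these enzymes. HIF-alpha is controlled mainly through protein stability, so the Hif1a transcript is not a measure of HIF activity. In the lung, Epas1, which encodes HIF-2 alpha, is abundant in endothelial cells, and activated neutrophils and macrophages rely on glycolysis.

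Promoters are shown for 3 members with which the results below are concerned, the regulators Pfkfb4 and Pfkfb3 and the lactate exporter Slc16a3, to show where the HIF core lies in them. Sequences are from RefSeq, build GRCm38.p6, 5′ to 3′ on the strand of the gene, from 250 bases before to 50 bases after the annotated start; capitals mark the core on either strand.
Pfkfb4, chr9:108991652-108991951, plus strand: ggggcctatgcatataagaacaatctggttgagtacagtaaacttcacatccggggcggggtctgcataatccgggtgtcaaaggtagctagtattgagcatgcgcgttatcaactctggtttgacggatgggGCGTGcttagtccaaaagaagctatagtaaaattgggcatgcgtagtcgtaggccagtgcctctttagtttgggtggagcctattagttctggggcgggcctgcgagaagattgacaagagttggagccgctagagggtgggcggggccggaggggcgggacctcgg
Pfkfb3, chr2:11502041-11502340, minus strand: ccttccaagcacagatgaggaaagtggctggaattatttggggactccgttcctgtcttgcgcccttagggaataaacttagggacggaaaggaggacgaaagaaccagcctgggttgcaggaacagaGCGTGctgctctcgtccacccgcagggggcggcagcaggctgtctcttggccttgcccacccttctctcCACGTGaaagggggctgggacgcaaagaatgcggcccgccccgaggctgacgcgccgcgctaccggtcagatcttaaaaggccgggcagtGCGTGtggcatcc
Slc16a3, chr11:120948817-120949116, plus strand: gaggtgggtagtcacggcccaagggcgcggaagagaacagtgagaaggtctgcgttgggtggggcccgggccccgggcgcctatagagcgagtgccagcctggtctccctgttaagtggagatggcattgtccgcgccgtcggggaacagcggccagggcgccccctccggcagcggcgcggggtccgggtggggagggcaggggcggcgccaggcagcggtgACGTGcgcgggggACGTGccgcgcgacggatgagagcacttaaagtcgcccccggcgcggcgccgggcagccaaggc
The Pfkfb4 window held 1 core, the Pfkfb3 window shown 4 and the Slc16a3 window 2. A second Pfkfb3 promoter, chr2:11553880-11554179, held 1 core and no CACGTG and is not printed. In the window shown, 2 of the 4 are the opposite strands of 1 CACGTG, the E-box that overlaps the ACGTG core on both strands. Of the 35 members, 32 matched the promoter table, with 45 promoters; Slc2a3, Epas1 and Ndrg1 have no entry. ACGTG or GCGTG occurred in 37 of the 45 (82.2%), against 43.8% of all 32851 promoters of the same length. ACGTG alone occurred in 55.6% of the member promoters, against 19.6% of all promoters, and CACGTG in 11.1%, against 7.15%. The list includes genes chosen because HIF is known to induce them, so a higher share of the core was likely beforehand. Some windows overlap another of the same gene, as for Eno1, Aldoa and Pfkm, so the 45 are not all separate. These are matches of letters, not sites at which binding was measured.

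Across the whole list, few members passed the test between the groups of lungs. With limma and Benjamini-Hochberg adjustment over the 10916 genes, 0 of 30 members passed an adjusted p of 0.05 in 4T1 lungs against normal lungs, where 0.412% of all genes tested passed. In 67NR lungs against normal lungs 0 of 30 passed, and 0% of all genes tested did. In 4T1 lungs against 67NR lungs 1 of 30 passed, Pfkfb4, which was higher, beside 0.76% of all genes tested in either direction and 0.559% in the higher direction. At an unadjusted limma p under 0.05, 3 of the 30 members were higher and 1 lower in 4T1 against normal lungs. In 67NR against normal lungs 2 were higher and 4 lower, and in 4T1 against 67NR lungs 6 were higher and 2 lower. Of all genes tested, 6.56% passed that level in the first comparison (3.58% higher and 2.98% lower), 9.13% in the second (4.62% higher and 4.52% lower) and 12.4% in the last (6.22% in each direction). The median log2 change of the 30 members was 0.039, -0.025 and 0.052 in these 3 comparisons, where the median over all genes tested was -0.00077, -0.0010 and -0.00079. The groups did not overlap for 1 member in 4T1 against normal lungs, which was higher, where 1.4% of all genes tested were wholly higher and 1.32% wholly lower. For 67NR against normal lungs it was 1 member, lower, beside 0.852% of all genes wholly higher and 0.797% wholly lower, and for 4T1 against 67NR lungs 4 members, all higher, beside 2.35% wholly higher and 2.22% wholly lower. In 4T1 against 67NR lungs, 6 of 30 members higher at the unadjusted level and 4 of 30 wholly higher exceeded the shares of all genes. The members were chosen with earlier results of these data known and were not tested as a set, so these counts only describe them. The 3 comparisons share arrays and are not independent of each other.

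**Figure D1:**
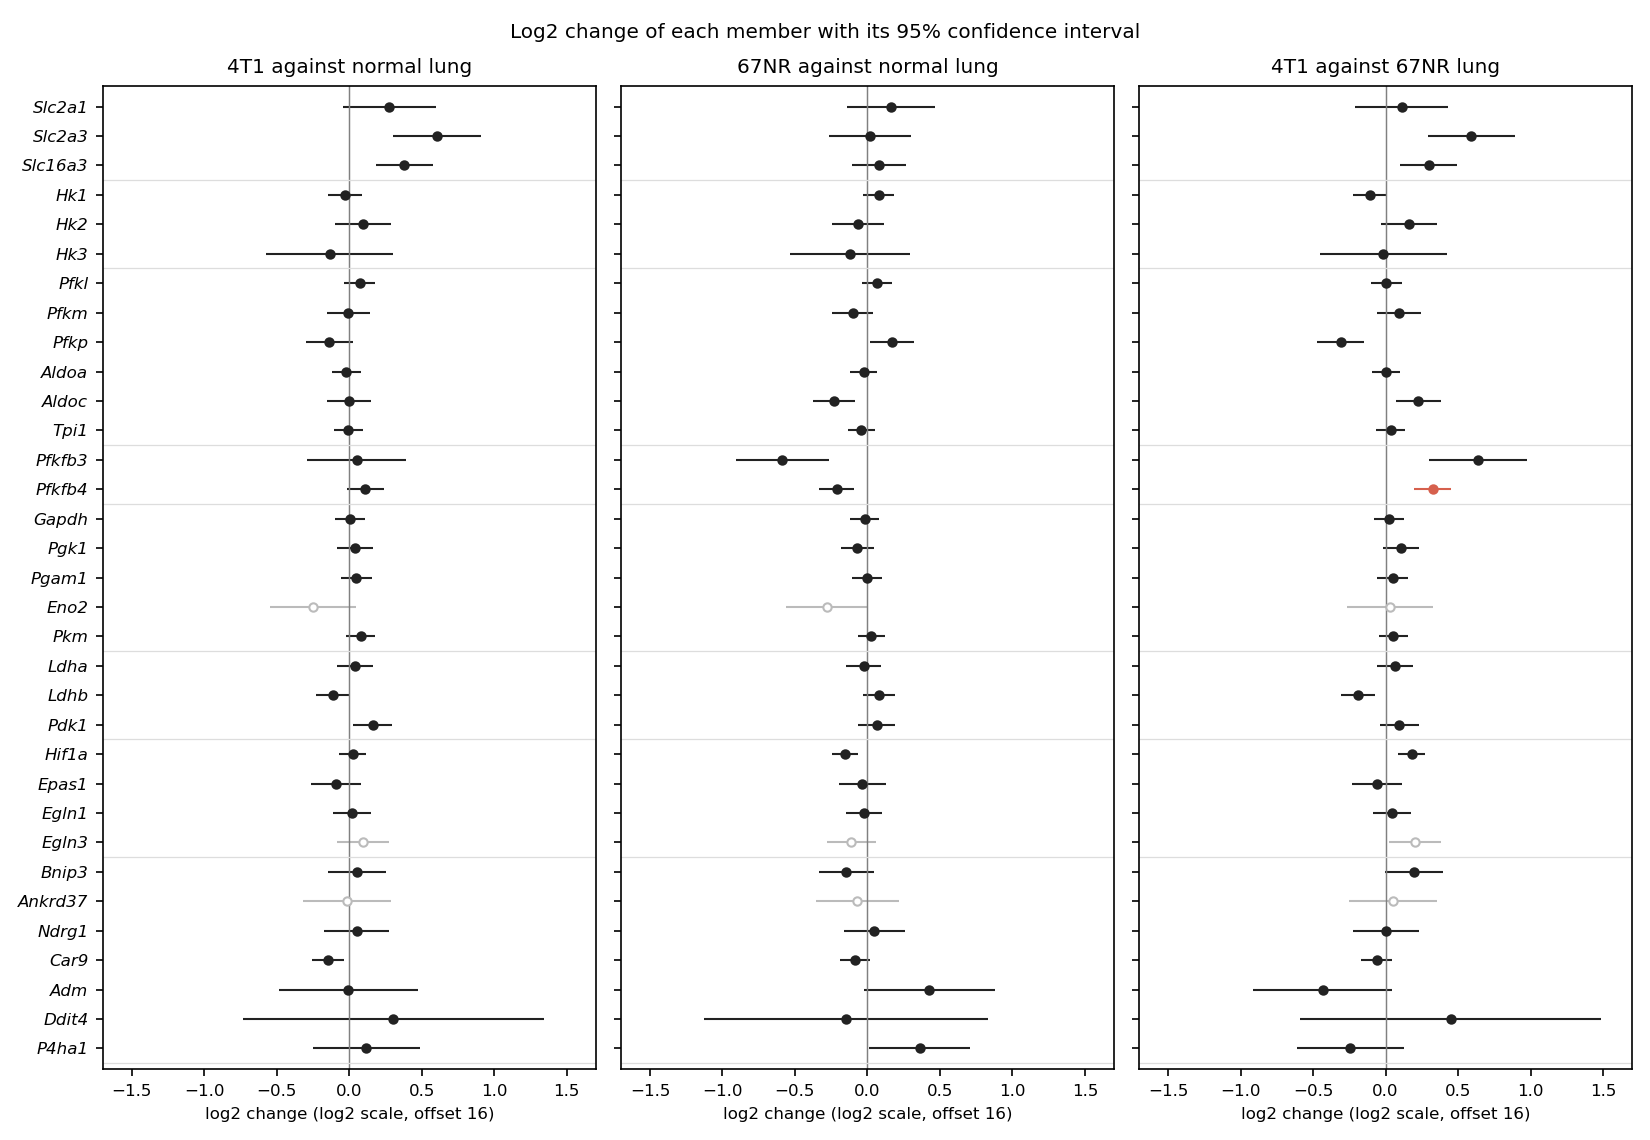
Log2 change of 33 members in 4T1 against normal, 67NR against normal and 4T1 against 67NR lungs, with the 95% confidence interval of the fit as bars and genes ordered by role. Filled points were tested, open grey points were under the level filter, and red marks an adjusted p under 0.05, which Pfkfb4 alone reached, in 4T1 against 67NR lungs.

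Among the transporters, Slc2a3, which encodes the high-affinity glucose transporter GLUT3, had the largest log2 change of the 30 members in 4T1 against normal lungs. Its intensity was 999, 701, 1120.5 and 919.8 in 4T1 lungs, 675, 706, 474, 617 and 592 in 67NR lungs, and 656, 502, 546, 715 and 607 in normal lungs. Replicates 1, 3 and 4 of the 4T1 lungs lay above every other lung, and replicate 2 lay among the 67NR and normal lungs. The log2 change was 0.61 (SE 0.14, 1.52-fold) in 4T1 against normal lungs, with a limma adjusted p of 0.121, and 0.59 (SE 0.14, 1.51-fold) in 4T1 against 67NR lungs, with an adjusted p of 0.0727, so neither passed. Without 4T1 replicate 2 both passed, with adjusted p of 0.0168 and 0.0213 by limma. In 67NR against normal lungs the log2 change was 0.015.

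Slc16a3 encodes MCT4, the lactate exporter of glycolytic cells. Its intensity was 216, 195, 236 and 190.4 in 4T1 lungs, 161, 184, 156, 153 and 181 in 67NR lungs, and 157, 173, 136, 184 and 138 in normal lungs. All 4 of the 4T1 lungs lay above all 67NR and all normal lungs. The log2 change was 0.38 (SE 0.092, 1.30-fold) in 4T1 against normal lungs and 0.30 (SE 0.092, 1.23-fold) in 4T1 against 67NR lungs, with limma adjusted p of 0.154 and 0.165. It was the 1 member whose 4T1 lungs all lay above the normal lungs. Slc2a1, the widespread glucose transporter GLUT1, had 278, 278, 401 and 273 in 4T1 lungs, 269, 221, 332, 348 and 246 in 67NR lungs, and 194, 231, 266, 259.5 and 299 in normal lungs. Its groups overlapped, and its log2 change was 0.28 (SE 0.15) in 4T1 against normal lungs, with a limma adjusted p of 0.846.

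Neutrophil markers were also higher in 4T1 lungs. Of 24 listed neutrophil genes, 22 were measured and 14 tested. Of the 14, 9 passed as higher in 4T1 against normal lungs, beside 0.412% of all genes tested. In 4T1 against 67NR lungs 11 passed as higher, beside 0.559%. In 67NR against normal lungs 0 passed, as did 0% of all genes tested. The summed intensity of the 22 was 30327 to 41454 in 4T1 lungs, 10225 to 13854 in 67NR lungs and 9033 to 13046 in normal lungs, and no marker was at 0. Their mean log2 level, less the mean of the 14 lungs, was 1.06, 0.66, 0.92 and 1.25 in 4T1 replicates 1 to 4, so replicate 2 was the lowest of the 4T1 lungs both in Slc2a3 and in neutrophil markers. The order of the other lungs was not shared: replicate 4, the highest in neutrophil markers, was the lowest 4T1 lung in Slc16a3, and replicate 3 was the highest in Slc2a3, Slc16a3 and Slc2a1. The genes that rose in both comparisons were Clec4d, Mmp8, S100a8, S100a9, Cxcr2, Stfa2l1, Csf3r, Ngp and Mmp9, and Lcn2 and Fpr2 rose in 4T1 against 67NR lungs. The alarmin subunit S100a8, for example, had a log2 change of 2.38 (SE 0.19) in 4T1 against normal lungs, with a limma adjusted p of 5.35e-06. Of 12 monocyte and interstitial macrophage markers tested, 1 rose in 4T1 against normal lungs, the Fc receptor gene Fcgr4, with a log2 change of 0.41 (SE 0.082) and a limma adjusted p of 0.0475; the list summed to 11554 to 13682 in 4T1 lungs and 11707 to 14469 in normal lungs. The part of these cells in the Slc2a3 and Slc16a3 values was not tested. In whole lung, fewer cells of a type and less RNA per cell cannot be told apart.

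**Figure D2:**
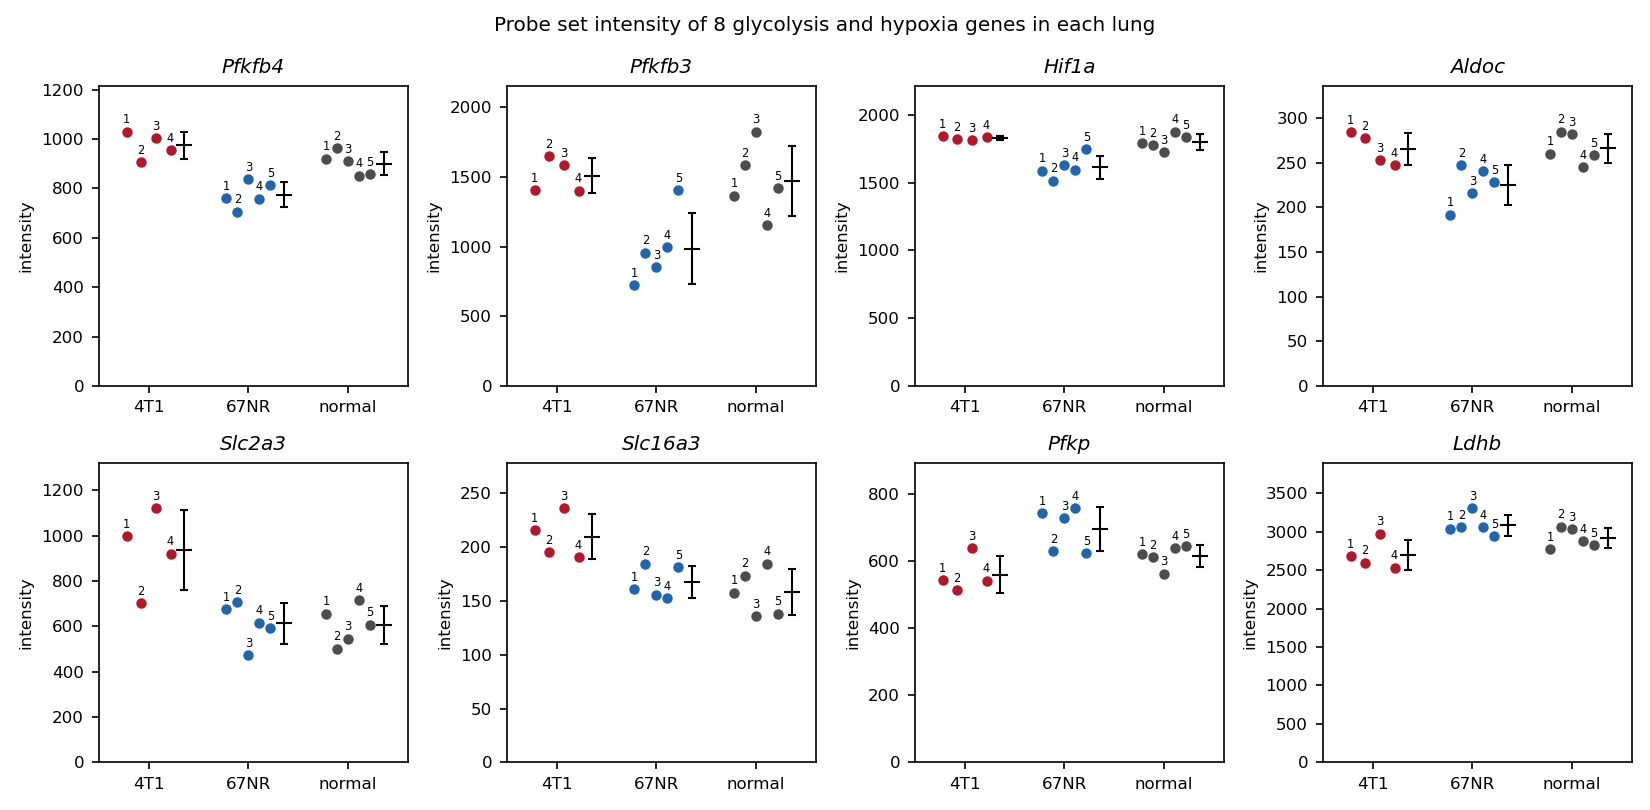
Linear intensity of 8 members in each of the 4T1, 67NR and normal lungs; each point is 1 lung with its replicate number beside it, and bars give the mean ± SD. Slc2a3 and Slc16a3 are highest in 4T1 lungs, while Pfkfb3, Pfkfb4 and Hif1a are lowest in 67NR lungs with replicate 5 the highest 67NR lung for Pfkfb3 and Hif1a.

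Hexokinases trap glucose in the cell as glucose 6-phosphate, and none of the 3 passed the test in any comparison. Hk1, the widespread form, ranged from 1322 to 1468 in 4T1 lungs, from 1412 to 1517 in 67NR lungs and from 1261 to 1503 in normal lungs. Its log2 change was -0.11 in 4T1 against 67NR lungs and 0.08 in 67NR against normal lungs. The other Hk1 probe set gave -0.28 (SE 0.092) and 0.28 (SE 0.087). Over all single-symbol probe sets its limma adjusted p were 0.361 and 0.582. Hk2, the form that HIF induces, ranged from 422 to 513 in 4T1 lungs, from 354 to 455 in 67NR lungs and from 371 to 483 in normal lungs, a log2 change of 0.09 in 4T1 against normal lungs and 0.16 in 4T1 against 67NR lungs. Hk3, which is expressed chiefly in myeloid cells, had 599.8, 466, 414 and 668 in 4T1 lungs, 306, 768, 566, 503 and 638 in 67NR lungs, and 629, 554, 597, 618 and 512 in normal lungs. The Hk3 groups overlapped and its log2 change was -0.13 (SE 0.20) in 4T1 against normal lungs, so the SE was larger than the change. The neutrophil markers were higher in the same 4T1 lungs, and their part in the Hk3 values was not tested.

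Phosphofructokinase commits sugar to glycolysis and is built from liver (Pfkl), muscle (Pfkm) and platelet (Pfkp) subunits. Pfkp had 542, 512, 638 and 541 in 4T1 lungs, 742, 628, 727, 756 and 622 in 67NR lungs, and 621, 610.0, 561, 638 and 644 in normal lungs. The 4T1 lungs lay below the 67NR lungs except for replicate 3, which lay above 67NR replicates 2 and 5. The log2 change was -0.31 (SE 0.076) in 4T1 against 67NR lungs, with a limma adjusted p of 0.0821, and 0.17 (SE 0.071) in 67NR against normal lungs, with an adjusted p of 0.517. A second Pfkp probe set, singled out after its values were seen, gave -0.40 (SE 0.064) in 4T1 against 67NR lungs, with a limma adjusted p of 0.025 over all 34958 single-symbol probe sets; the third, a dim one, gave -0.096 (SE 0.062), with an adjusted p of 0.711, and the probe set described above had an adjusted p of 0.206 in that fit. Pfkl ranged from 1079.7 to 1169 in 4T1 lungs, from 1028 to 1195 in 67NR lungs and from 1029 to 1151 in normal lungs, and Pfkm had log2 changes of -0.007, -0.10 and 0.09 in the 3 comparisons.

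Aldolase splits the 6-carbon sugar. Aldoc, the form best known from brain, had 284, 277, 253 and 247 in 4T1 lungs, 192, 247, 216, 241 and 228 in 67NR lungs, and 260.1, 285, 282, 245 and 258 in normal lungs. The 4T1 lungs lay above the 67NR lungs, by a very small margin between 4T1 replicate 4 and 67NR replicate 2. Aldoc had a log2 change of 0.23 (SE 0.071) in 4T1 against 67NR lungs and -0.23 (SE 0.067) in 67NR against normal lungs, with limma adjusted p of 0.179 and 0.309. Aldoa, the main aldolase of most tissues, changed by -0.021, -0.025 and 0.004 in the 3 comparisons, and Tpi1, which interconverts the 2 triose phosphates, by -0.007, -0.042 and 0.034.

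The PFKFB enzymes make and remove fructose 2,6-bisphosphate, the strongest activator of phosphofructokinase, and both measured members were lowest in 67NR lungs. Pfkfb4 had 1029, 906, 1004 and 955 in 4T1 lungs, 761, 706, 837, 758 and 813 in 67NR lungs, and 920.2, 962, 909.5, 852 and 858 in normal lungs. Every 67NR lung lay below every 4T1 lung and every normal lung, while 4T1 and normal lungs overlapped. In 4T1 against 67NR lungs the log2 change was 0.32 (SE 0.058, 95% interval 0.20 to 0.45, 1.25-fold), with a limma adjusted p of 0.0169. In 67NR against normal lungs it was -0.21 (SE 0.055), with an adjusted p of 0.3, and in 4T1 against normal lungs 0.11 (SE 0.058), with an adjusted p of 0.843. The first of these rests on single lungs and on the fit: the limma adjusted p was 0.0716 without 4T1 replicate 1, 0.0508 without replicate 3, 0.0512 without replicate 4, 0.0650 when only these 2 groups were fitted and 0.0535 when all single-symbol probe sets were tested.

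Pfkfb3, the form with the highest kinase activity and the one that inflammatory signals and hypoxia induce, had 1406, 1650.4, 1583 and 1403 in 4T1 lungs, 723, 957, 854, 996 and 1403 in 67NR lungs, and 1367, 1583, 1825, 1154 and 1421 in normal lungs. Replicates 1 to 4 of the 67NR lungs lay below all 4T1 and all normal lungs, and 67NR replicate 5 lay among them. The log2 change was 0.64 (SE 0.16, 1.56-fold) in 4T1 against 67NR lungs and -0.59 (SE 0.15) in 67NR against normal lungs, with limma adjusted p of 0.0854 and 0.295. Without 67NR replicate 5 the first passed, with an adjusted p of 0.0122. A second Pfkfb3 probe set had log2 changes of 0.48 in 4T1 against 67NR lungs and -0.53 in 67NR against normal lungs. The mean log2 level of clock output genes, less the mean of the 14 lungs, varied over the same lungs: it was 0.47, 0.57, 0.17 and 0.55 in 4T1 lungs, -2.12, -0.20, -1.53, -0.33 and 0.34 in 67NR lungs, and 0.45, 0.63, 0.71, 0.03 and 0.26 in normal lungs. Within the 67NR lungs Pfkfb4 did not follow this order: its highest lung was replicate 3, with 837, and its lowest replicate 2, with 706. The part of the clock output list in the PFKFB values was not tested. Without 67NR replicates 1 and 3 the log2 change in 4T1 against 67NR lungs was 0.35 for Pfkfb4 (adjusted p 0.0422 by limma) and 0.45 for Pfkfb3 (adjusted p 0.230). With so few 67NR lungs left, these values cannot show the part of the clock output list in either gene.

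The enzymes of lower glycolysis, which yield ATP and pyruvate, differed little between the groups. Gapdh, which oxidises glyceraldehyde 3-phosphate and is read here by an Affymetrix control probe set, had 6801, 6479.6, 6888 and 6844 in 4T1 lungs, 6919, 6171, 6825, 6921 and 6438 in 67NR lungs, and 6574, 6321, 7018, 6867 and 6952 in normal lungs. Its log2 change was 0.002 in 4T1 against normal lungs, -0.020 in 67NR against normal lungs and 0.022 in 4T1 against 67NR lungs. Pgk1, which makes ATP in the payoff phase, ranged from 3665 to 4126 in 4T1 lungs, from 3430.1 to 3797 in 67NR lungs and from 3555 to 4158 in normal lungs. Pgam1, phosphoglycerate mutase, changed by 0.05, -0.003 and 0.05, and Pkm, pyruvate kinase, by 0.08, 0.026 and 0.05 in the same order. Over these 4 genes the 95% intervals of the log2 changes ran at most from -0.10 to 0.18 in 4T1 against normal lungs, from -0.18 to 0.12 in 67NR against normal lungs and from -0.08 to 0.23 in 4T1 against 67NR lungs. Eno2, the neuronal enolase, was dim and untested, at 28.1 to 52.6 in 4T1 lungs, 24.8 to 47 in 67NR lungs and 45.5 to 54.5 in normal lungs.

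At the lactate branch, Ldha, whose product favours making lactate, had log2 changes of 0.04, -0.027 and 0.07, with 2817 to 3079.8 in 4T1 lungs, 2675 to 2891 in 67NR lungs and 2674 to 3291 in normal lungs. Ldhb, the form that favours pyruvate, had 2682, 2596, 2974 and 2529 in 4T1 lungs, 3040.1, 3055, 3303, 3060.0 and 2941 in 67NR lungs, and 2774, 3064, 3033, 2871 and 2823 in normal lungs. Of the 4T1 lungs, replicate 3 alone reached above the lowest 67NR lung. Ldhb had a log2 change of -0.19 (SE 0.055) in 4T1 against 67NR lungs, with a limma adjusted p of 0.134, and 3 further Ldhb probe sets gave -0.23 to -0.31. Pdk1, which shuts the pyruvate dehydrogenase complex and so keeps pyruvate from mitochondria, had 410.0, 385, 392 and 403 in 4T1 lungs, 385, 336, 362, 394 and 379.5 in 67NR lungs, and 339, 352, 398, 315 and 372 in normal lungs. The groups overlapped, and its log2 change was 0.16 (SE 0.064) in 4T1 against normal lungs, with a limma adjusted p of 0.642. Other Pdk1 probe sets disagreed in that comparison, with log2 changes of 0.11, -0.03 and, for the dimmest, -0.19.

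Pairs of genes with the same kind of activity were compared within each lung, since a difference within an array is free of the scaling between arrays. Of 30 exact permutation tests (10 pairs in 3 comparisons, two-sided), 0 passed after Benjamini-Hochberg adjustment and 4 had an unadjusted p under 0.05, each with an adjusted p of 0.260. The smallest p possible was 0.00794 in each comparison, so 1 pair alone could not pass over 30 tests and the count of 0 says little. Ldha minus Ldhb was higher by 0.26 on the log2 scale in 4T1 against 67NR lungs (exact p = 0.0159), and the groups overlapped. Pfkp minus Pfkl was -0.31 (exact p = 0.0476) and Epas1 minus Hif1a -0.24 (exact p = 0.0238) in the same comparison, and Aldoc minus Aldoa was -0.20 in 67NR against normal lungs (exact p = 0.0397).

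Of the HIF genes, Hif1a, the oxygen-regulated subunit found in most cells, had 1846, 1823, 1812 and 1836 in 4T1 lungs, 1588, 1515, 1632, 1596 and 1747 in 67NR lungs, and 1793, 1775, 1724, 1877 and 1836 in normal lungs. The 4T1 lungs lay within a narrow range above all 67NR lungs, and 67NR replicate 5 was the 1 lung of its group to reach above the lowest normal lung. The log2 change was 0.18 (SE 0.044, 1.13-fold) in 4T1 against 67NR lungs and -0.16 (SE 0.042) in 67NR against normal lungs, with limma adjusted p of 0.0847 and 0.3. Without 67NR replicate 5 the first passed, with an adjusted p of 0.0316, as did Pfkp with 0.0405; Pfkp also passed without 4T1 replicate 3, with 0.0393. Other Hif1a probe sets disagreed in 4T1 against 67NR lungs: 1 gave 0.144, and a pair of dimmer ones gave -0.153 and -0.33. Slc16a3, Aldoc, Pfkfb4 and Hif1a were the 4 of 30 members whose 4T1 lungs all lay above the 67NR lungs.

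Epas1, the HIF-2 alpha subunit, ranged from 10176 to 12355 in 4T1 lungs, from 10573 to 13139 in 67NR lungs and from 10707 to 13351 in normal lungs. Its log2 change was -0.09, -0.04 and -0.06 in the 3 comparisons, and endothelial markers summed to 39608 to 43627 in 4T1 lungs, 40388 to 46654 in 67NR lungs and 38608 to 45031 in normal lungs. Egln1, the main prolyl hydroxylase that marks HIF-alpha, changed by 0.017, -0.024 and 0.042. Egln3, a hydroxylase that HIF itself induces, was under the level filter, with 108 to 147 in 4T1 lungs, 97.1 to 119 in 67NR lungs and 104 to 133 in normal lungs.

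**Figure D3:**
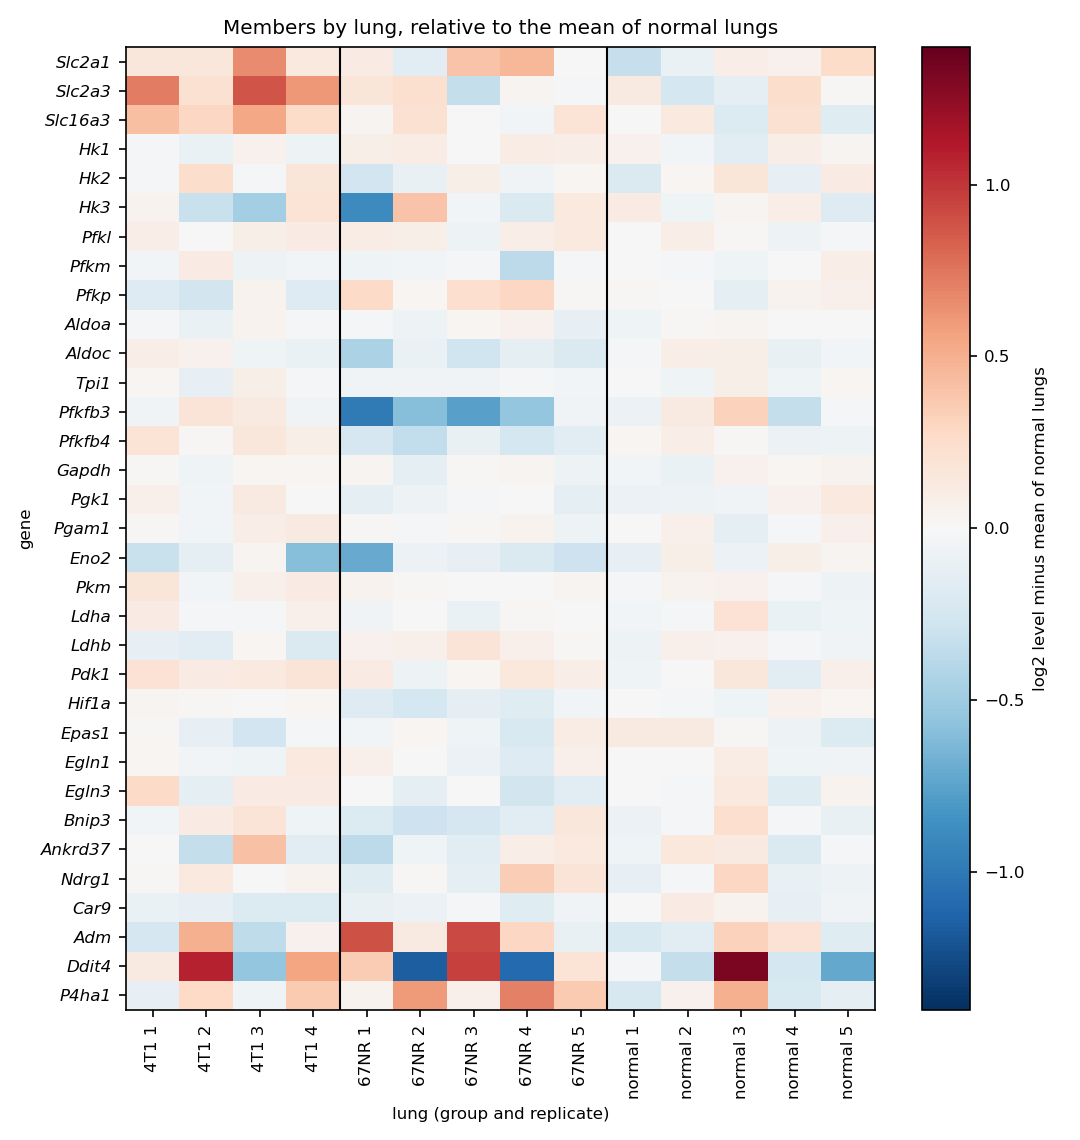
Log2 level of 33 members in each of 14 lungs, less the mean of the normal lungs, with 4T1 lungs at the left, then 67NR and normal lungs, and genes ordered by role. Ddit4 varies most within groups, and Gapdh, Pgk1, Pgam1 and Pkm are close to the normal mean in every lung.

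None of the other hypoxia-induced genes passed the test in any comparison, and Ddit4, Adm and P4ha1 varied widely within groups. Ddit4, which encodes the mTORC1 inhibitor REDD1 and is induced by hypoxia and by glucocorticoids, had 990.0, 1929, 618 and 1329.8 in 4T1 lungs, 1162, 399, 1769, 417 and 1037 in 67NR lungs, and 887, 716, 2285, 762 and 543 in normal lungs. Its SD within groups was 0.815 on the log2 scale, the highest of the 30 members, whose median was 0.0997, against a median of 0.110 over all genes tested; the lowest was that of Hif1a, 0.0532. The log2 change of Ddit4 was 0.30 (SE 0.48) in 4T1 against normal lungs. A list of glucocorticoid-induced genes, which shares Lcn2 with the neutrophil list, had mean levels on the same scale of -0.0018, 0.60, -0.039 and 0.33 in 4T1 lungs, -0.28, -0.39, 0.11, -0.23 and -0.11 in 67NR lungs, and -0.28, 0.19, 0.71, -0.46 and -0.16 in normal lungs. The highest lung of each group in Ddit4 was also the highest of that group in this list. These were 4T1 replicate 2, 67NR replicate 3 and normal replicate 3. The 4T1 lungs had the same order in both, but the 67NR and normal lungs did not. For example, 67NR replicate 1 lay above replicates 4 and 5 in Ddit4 and below both in the list. Normal replicate 4, the lowest normal lung in the list, lay above normal replicates 2 and 5 in Ddit4. The part of the list in the Ddit4 values was not tested.

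Adm, which encodes the vasodilator adrenomedullin, had 285, 486, 262 and 356 in 4T1 lungs, 645, 371, 658, 419.5 and 316 in 67NR lungs, and 291, 304, 429, 393 and 301 in normal lungs. Replicates 1 and 3 of the 67NR lungs lay above every other lung. Adm had a log2 change of 0.43 (SE 0.21) in 67NR against normal lungs and -0.43 (SE 0.22) in 4T1 against 67NR lungs, with limma adjusted p of 0.579 and 0.455. These 2 lungs were also the lowest on the clock output list, whose part in Adm was not tested. P4ha1, a collagen prolyl hydroxylase subunit, had 926, 1212, 958 and 1292 in 4T1 lungs, 1037, 1524, 1048, 1645 and 1296 in 67NR lungs, and 857, 1047, 1417, 860.5 and 913 in normal lungs. Here replicates 2 and 4 were the highest 67NR lungs, and the log2 change was 0.36 (SE 0.16) in 67NR against normal lungs, with a limma adjusted p of 0.531.

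Bnip3, a mitochondrial protein of mitophagy and cell death, had 1477, 1643, 1720.1 and 1444 in 4T1 lungs, 1318, 1232, 1279, 1354 and 1684 in 67NR lungs, and 1425, 1481, 1785, 1494 and 1404 in normal lungs. As with Pfkfb3 and Hif1a, 67NR replicate 5 was the highest lung of its group, and the log2 change of 0.20 in 4T1 against 67NR lungs had a limma adjusted p of 0.411. Car9, the cell-surface carbonic anhydrase IX and a widely used marker of hypoxia, had 171, 168, 159 and 158 in 4T1 lungs, 170.3, 172, 179, 162 and 177 in 67NR lungs, and 184, 200.1, 190.2, 168 and 177 in normal lungs. Its log2 change was -0.15 (SE 0.051) in 4T1 against normal lungs, with a limma adjusted p of 0.493. Ndrg1, a stress-induced gene that hypoxia raises in many cell types, changed by 0.05, 0.05 and 0.003 in the 3 comparisons. Ankrd37, a HIF target, was under the filter, at 116 to 205 in 4T1 lungs, 113 to 167 in 67NR lungs and 128 to 168 in normal lungs.

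**Figure D4:**
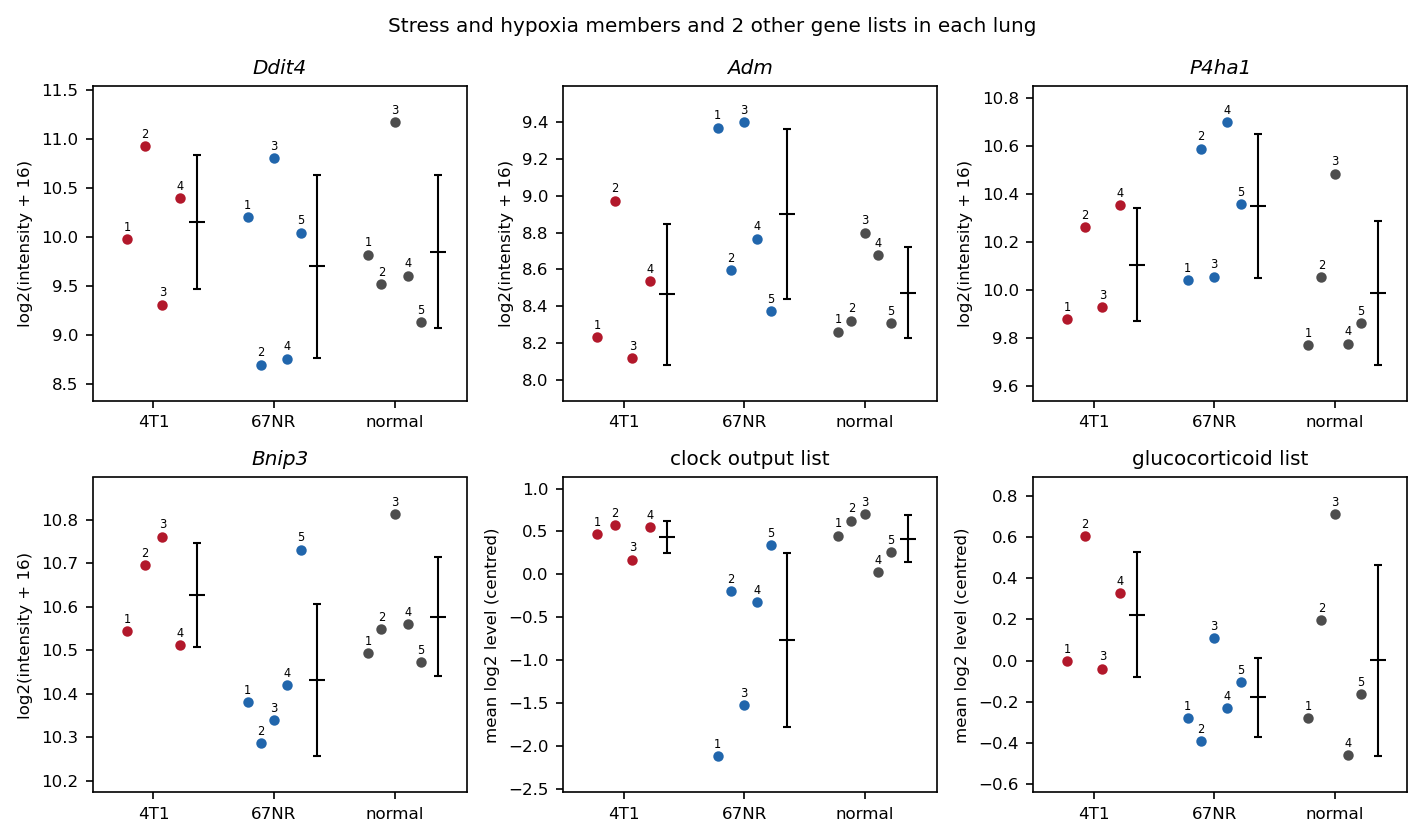
Log2(intensity + 16) of Ddit4, Adm, P4ha1 and Bnip3 in 4T1, 67NR and normal lungs, and the mean log2 level of the clock output and glucocorticoid-induced lists less the mean of the 14 lungs; points are lungs with the replicate number above, and bars give the mean ± SD. Normal replicate 3 is the highest normal lung in all 4 genes and in both lists.

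The rest of the pathway was read from 5 lists of genes that are not members, covering other sugar and pyruvate enzymes and transporters, gluconeogenesis and glycogen, the pentose phosphate pathway, HIF regulators and other HIF targets. Of 107 measured, 91 were tested, and by limma 0 passed in each of the 3 comparisons. At an unadjusted limma p under 0.05 there were 4 higher and 1 lower in 4T1 against normal lungs, beside 6.56% of all genes tested. In 67NR against normal lungs there were 3 higher and 5 lower, beside 9.13%. In 4T1 against 67NR lungs there were 10 higher and 4 lower, beside 12.4%, with 6.22% in each direction. The median log2 change of the 91 was 0.015, -0.013 and 0.024 in these comparisons. Among HIF regulators, Hif1an, the asparaginyl hydroxylase that blocks HIF from its coactivators, had a log2 change of -0.17 in 4T1 against 67NR lungs, with a limma adjusted p of 0.104, the smallest of the 91 in that comparison, and 0.12 in 67NR against normal lungs. Ep300, such a coactivator, had 0.25 in 4T1 against 67NR lungs, with an adjusted p of 0.107 by limma. Among other HIF targets, Bhlhe40, a repressor tied to the circadian clock, had the smallest adjusted p in 67NR against normal lungs, with a log2 change of -0.65 and a limma adjusted p of 0.330. Sap30, also on that list, had the smallest of the 91 in 4T1 against normal lungs. Its log2 change there was 0.32 (SE 0.079), with a limma adjusted p of 0.164. In 4T1 against 67NR lungs it was 0.20, with an adjusted p of 0.305 by limma.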

How the data were processed

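RNA of 14 lungs, grouped by sample title and injected cell line, was measured on 1 Affymetrix array each, per the labels' protocols. The deposited intensities are linear values of 45101 probe sets, and the authors' background correction, summarisation and normalisation are not given in the sources used here. No detection calls were used, and the number of arrays limits the precision. The GEO platform annotation gave 1 symbol to 34958 probe sets, several to 932 and none to 9211; 34754 Entrez identifiers matched RefSeq, and 0 symbols changed. Intensities were taken as log2(intensity + 16), so fold changes understate dim genes. Per gene, the probe set of highest mean was kept. Genes above log2 7.35, the upper 60%, were tested with limma 3.58.1 in R 4.3.3 over all 14 arrays (11 residual degrees of freedom), with two-sided p adjusted by Benjamini-Hochberg and a threshold of 0.05. Levels of different probe sets were set against each other only as differences within a lung, compared between groups. All members were described; genes of other lists were named from those past the threshold or, with none, from the 3 with the smallest p. The members and lists were chosen with earlier results of these data known. Replicate numbers, the fit's settings and each array's removal were tried as alternatives.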

Additional observations from a re-analysis of the deposited data

Results flagged for a closer look

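In 7 of 99 groups of lungs tested, 1 lung lay far from the rest by Dixon's criterion, which chance alone meets in about 1 group of 20. On the log2 scale, Slc2a1 was 8.70 in 4T1 replicate 3, while the other 4T1 lungs had 8.17 to 8.20. Pfkm was 9.73 in 4T1 replicate 2, against 9.55 to 9.58 in the other 4T1 lungs, and 9.25 in 67NR replicate 4, against 9.56 to 9.60 in the other 67NR lungs. Hk1 was 10.48 in 67NR replicate 3, against 10.55 to 10.58. Normal replicate 3 stood apart from its group by this criterion in 3 genes, though it was the highest normal lung in others too: Ldha at 11.69 against 11.39 to 11.47, Bnip3 at 10.81 against 10.47 to 10.56, and Ndrg1 at 9.87 against 9.47 to 9.57. Its mean over the members was also the highest of the 14 lungs, 0.10 on the log2 scale.

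The change of Pfkfb4 from normal lungs differed between the tumour lines by 0.32 on the log2 scale, 4T1 minus 67NR, which is the 4T1 against 67NR comparison of the report.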

How the results depend on the processing

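Results were recomputed under 28 settings, of which 14 left out 1 array, 13 were other planned choices and 1, testing all single-symbol probe sets without a level filter, was chosen after seeing the data. The count of members called in 67NR against normal lungs was 0 under all of them, and the median changes of the members kept their sign, at 0.016 to 0.059 in 4T1 against normal lungs, -0.033 to -0.010 in 67NR against normal lungs and 0.036 to 0.073 in 4T1 against 67NR lungs. In 4T1 against 67NR lungs the 1 member called became 2 with the mean of all probe sets, 5 with array weights, and 0 with only the 2 groups fitted or all probe sets tested, counting the brightest probe set of each member (a second Pfkp probe set passed there); leaving out 1 array gave 0 to 4. The count was 0 without 4T1 replicate 1 or 4, 2 without 4T1 replicate 2 and 4 without 67NR replicate 5. In 4T1 against normal lungs leaving out 1 array gave 0 to 1, the 1 being Slc2a3 without 4T1 replicate 2. Hif1a reversed to -0.040 in 4T1 against 67NR lungs with the mean of its probe sets, which disagree with one another. The other causes were not tested. Over all genes tested, the count called was 45 in 4T1 against normal lungs (26 to 67 over the settings), 0 in 67NR against normal lungs (0 to 11) and 83 in 4T1 against 67NR lungs (41 to 184). Pfkfb4 had a log2 change of 0.29 to 0.36 and a limma adjusted p of 0.0114 to 0.0716 over the settings, and passed the threshold in all but 6.

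Same-numbered lungs correlated between -0.34 and 0.22, so the replicate numbers were not taken as pairs. With the replicate block, 0 members were called in 4T1 against 67NR lungs, where Pfkfb4 had a log2 change of 0.32 and a limma adjusted p of 0.0594.

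Few arrays and the absence of detection calls limit what dim genes such as Eno2 can show.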

Other observations

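Outside the members, some genes of the pathway lists that did not pass the limma test had the following values. Ppp1r3c, which brings protein phosphatase 1 to glycogen, had a log2 change of -0.74 (SE 0.21) in 4T1 against 67NR lungs and -0.56 (SE 0.21) in 4T1 against normal lungs, with adjusted p of 0.139 and 0.596 by limma. Gbe1, the glycogen branching enzyme, had 0.38 (SE 0.11) in 4T1 against 67NR lungs, and Pygl, the liver form of glycogen phosphorylase, had 0.25, with limma adjusted p of 0.159 and 0.220. Bpgm, which makes 2,3-bisphosphoglycerate in red cells, had 0.35 in 4T1 against normal lungs, with a limma adjusted p of 0.775; erythroid markers summed to 1404 to 2398 in 4T1 lungs and 509.5 to 1770 in normal lungs, and their part in it was not tested.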
